A study of Homo sapiens with 4 samples.

Results

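Clusters of γH2AX peaks are stretches of the genome in which lipid-overloaded HepG2 cells carried several separate peaks side by side. γH2AX is the histone variant H2AX phosphorylated at serine 139, which marks chromatin around DNA double-strand breaks, and HepG2 is a human liver cancer cell line. A cluster was a chain of 4 or more lipid-overload peaks on chromosomes 1 to 22 and X, each at most 10 kb from the next. It also had to lie more than 1 Mb from both chromosome ends, and chromosome 5 below about 49 Mb was left out. This gave 417 clusters with 2032 of the 27296 peaks in the lipid-overload list. The clusters were chosen by the positions of the lipid-overload peaks, so their number, length and spacing are descriptions and were not tested.

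The series holds 4 samples of HepG2 cells grown in DMEM with fetal bovine serum, 1 for each combination of treatment and antibody. They are lipid-overloaded cells (labelled HEPG2-PAOA) with the γH2AX antibody, the same with control IgG, and mock-treated cells (labelled HEPG2-DMSO) with each of the antibodies. The sources used here state neither lipid dose nor exposure time. CUT&Tag was run on 100000 cells per sample, and the libraries were amplified for 14 PCR cycles. The peak lists of lipid-overload and mock γH2AX were compared, and IgG was not analysed here. Each condition has a single library, so a difference between conditions has no replicate check, and none was tested. Intervals in brackets are exact, at 95%, and allow for counting error alone. Copies made by PCR are not independent fragments.

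After a double-strand break, kinases phosphorylate H2AX first next to the break and then along the chromosome, where repair factors gather on the modified histone. In cells without added damage, γH2AX also marks stalled replication and sites of transcription. CUT&Tag brings a transposase to the antibody, and the enzyme cuts open chromatin, such as active promoters and enhancers, more readily than compact chromatin. A CUT&Tag peak therefore shows where tagged fragments pile up and does not place a break by itself.

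Promoter sequences are shown for clusters with many peaks (CCDC187, NIBAN2, PIEZO1, LMNA and JUNB) and for the tallest peaks at genes (SLC2A8 and TMEM141). The tallest summits of all lay in clusters without a coding gene, for which no promoter can be shown. Each run below goes from 250 bases before to 50 bases after an annotated gene start, read 5′ to 3′ on the strand of the gene, from RefSeq (GRCh38.p14, the coordinates of hg38). They are CCDC187 (chr9:136304045-136304344, minus strand), NIBAN2 (chr9:127578982-127579281, minus strand), JUNB (chr19:12791236-12791535, plus strand), LMNA (chr1:156106466-156106765, plus strand), PIEZO1 (chr16:88785171-88785470, minus strand), SLC2A8 (chr9:127396919-127397218, plus strand) and TMEM141 (chr9:136791094-136791393, plus strand). The CCDC187 and LMNA windows belong to starts within the gene, and the others to the outermost start. Capitals mark matches on either strand to the GC box (GGGCGG), the CCAAT box (CCAAT), the TATA box (TATAAA), the NRF1 motif, the cAMP response element (TGACGTCA), the AP-1 element (TGANTCA), the E-box (CACGTG) or the ETS core (CCGGAAG), and neighbouring matches can overlap.
CCDC187: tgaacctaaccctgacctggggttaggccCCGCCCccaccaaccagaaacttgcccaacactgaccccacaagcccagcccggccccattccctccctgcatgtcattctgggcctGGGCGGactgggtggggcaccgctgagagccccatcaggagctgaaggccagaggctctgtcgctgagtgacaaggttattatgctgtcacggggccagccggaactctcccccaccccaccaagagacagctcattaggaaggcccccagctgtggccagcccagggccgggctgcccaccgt
NIBAN2: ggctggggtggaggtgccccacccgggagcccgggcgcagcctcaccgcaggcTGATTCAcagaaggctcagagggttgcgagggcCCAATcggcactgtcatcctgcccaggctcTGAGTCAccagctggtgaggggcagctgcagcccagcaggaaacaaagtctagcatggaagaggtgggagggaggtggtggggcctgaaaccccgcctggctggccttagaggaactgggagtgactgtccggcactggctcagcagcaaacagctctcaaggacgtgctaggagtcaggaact
JUNB: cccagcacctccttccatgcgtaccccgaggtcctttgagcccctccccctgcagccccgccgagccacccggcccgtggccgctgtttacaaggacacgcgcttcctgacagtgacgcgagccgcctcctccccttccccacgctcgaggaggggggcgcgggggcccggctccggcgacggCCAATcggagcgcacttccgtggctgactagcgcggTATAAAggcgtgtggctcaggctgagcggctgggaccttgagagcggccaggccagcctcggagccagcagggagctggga
LMNA: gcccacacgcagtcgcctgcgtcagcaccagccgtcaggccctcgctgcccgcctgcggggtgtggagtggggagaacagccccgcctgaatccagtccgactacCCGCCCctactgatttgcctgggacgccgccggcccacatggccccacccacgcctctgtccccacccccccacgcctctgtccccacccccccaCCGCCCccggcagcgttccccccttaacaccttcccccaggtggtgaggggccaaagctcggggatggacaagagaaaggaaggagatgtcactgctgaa
PIEZO1: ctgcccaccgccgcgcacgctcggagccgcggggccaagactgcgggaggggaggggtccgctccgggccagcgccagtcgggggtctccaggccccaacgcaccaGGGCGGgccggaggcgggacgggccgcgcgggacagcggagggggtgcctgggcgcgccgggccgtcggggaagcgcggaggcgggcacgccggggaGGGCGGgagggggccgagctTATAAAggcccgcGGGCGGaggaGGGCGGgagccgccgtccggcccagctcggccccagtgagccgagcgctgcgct
SLC2A8: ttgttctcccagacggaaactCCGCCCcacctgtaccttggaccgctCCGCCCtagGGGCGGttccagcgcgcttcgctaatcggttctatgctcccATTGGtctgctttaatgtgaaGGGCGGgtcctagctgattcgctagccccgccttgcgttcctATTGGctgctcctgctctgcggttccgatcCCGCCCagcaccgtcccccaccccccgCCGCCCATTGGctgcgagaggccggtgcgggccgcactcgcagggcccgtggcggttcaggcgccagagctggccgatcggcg
TMEM141: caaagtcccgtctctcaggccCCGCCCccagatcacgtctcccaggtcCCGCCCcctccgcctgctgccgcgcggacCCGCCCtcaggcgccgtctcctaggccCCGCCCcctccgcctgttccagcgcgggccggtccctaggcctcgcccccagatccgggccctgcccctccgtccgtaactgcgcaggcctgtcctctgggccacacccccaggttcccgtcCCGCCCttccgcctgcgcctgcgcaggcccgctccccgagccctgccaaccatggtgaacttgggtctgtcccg
The G+C content was 65% in CCDC187, 64% in NIBAN2, 71% in JUNB, 69% in LMNA, 81% in PIEZO1, 67% in SLC2A8 and 74.7% in TMEM141. CpG pairs numbered 9 each in CCDC187 and NIBAN2 and 44 in PIEZO1. NIBAN2 held no GC box, 1 CCAAT box and 2 AP-1 elements, and CCDC187 2 GC boxes. SLC2A8 held 6 GC boxes and 3 CCAAT boxes, TMEM141 5 GC boxes and PIEZO1 4 GC boxes with a TATA box. JUNB held 1 CCAAT box and 1 TATA box, and LMNA 2 GC boxes. A match is a stretch of letters and does not show that a factor binds there.

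Promoters under member peaks were close in composition to those under lipid-overload peaks in general. Of the coding-gene promoter windows in the table, 365 (of 316 genes) overlapped a member peak, 6311 another lipid-overload peak, and 14598 no lipid-overload peak. The median G+C content was 67.3% under member peaks, 67% under other lipid-overload peaks and 58.7% without a peak. A GC box stood in 77.8% (73.2 to 82.0), 79.2% (78.1 to 80.2) and 45.4% (44.6 to 46.2) of the windows in the same order, against 56.0% of all 21274. CCAAT boxes were found in 41.9% (36.8 to 47.2) of the windows under member peaks and 41.7% (40.5 to 42.9) under other lipid-overload peaks, against 34.7% of all. ETS cores stood in 18.4% (14.5 to 22.7) and 22.5% (21.5 to 23.6), against 12.7% of all. For these 3 motifs the interval under member peaks overlapped that under other lipid-overload peaks.

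Most clusters were short and just met the rule. Of the 417, 232 had 4 peaks, 94 had 5, 44 had 6, and 47 had 7 or more, up to 16. Their median length was 17.8 kb (quartiles 13.3 and 23.6 kb), from 1.55 to 68.2 kb. Together they spanned 8.16 Mb, or 0.278% of the 2937 Mb in which a cluster was allowed. They held 8.25% of the 24619 lipid-overload peaks there, and 6.33% of their span lay under a member peak. The median gap between neighbouring member peaks was 5.14 kb, while between all neighbouring lipid-overload peaks it was 28.9 kb. The mock list, chained in the same way, gave 15 clusters with 67 peaks.

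**Figure D1:**
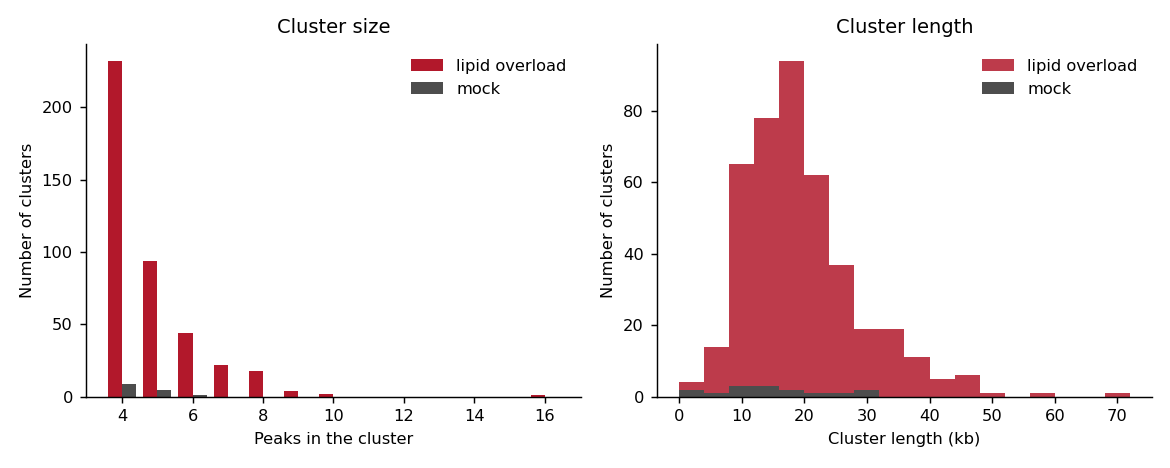
Number of clusters by the number of peaks they hold (left) and by length in kb, in bins of 4 kb (right), for the lipid-overload library (red) and the mock library chained by the same rule (grey). Of the 417 lipid-overload clusters, 232 have 4 peaks and 1 has 16, and the mock library has 15 clusters of 4 to 6 peaks.

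The lists differ in depth, which alone changes the number of peaks and so of clusters. The number of fragments over each summit was recovered from the fold and p that the authors gave. The lowest local background, taken as that of the genome, was 0.289 fragments in lipid overload and 0.121 in mock, a ratio of 2.39. Fragment numbers of the libraries, here and below, are not scaled for this ratio. When the lipid-overload list was cut to its best-ranked peaks, as many as the mock list holds, 44 clusters remained, against 15 in mock. With peaks of −log10 q of at least 5 only, there were 63 clusters in lipid overload and 3 in mock. Neither setting makes the libraries equal in depth.

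The rule cuts through a continuous range. Just inside it stood the 232 chains of 4 peaks, with a median of 12 fragments per peak, and just outside it 707 chains of 3 peaks, with 11. Chains of 4 peaks held a mock peak in 53% of cases and chains of 3 in 41.4%, over median lengths of 14.9 and 9.98 kb. Neighbouring peaks were 9 to 10 kb apart in 514 cases and 10 to 11 kb apart in 502. A further 119 chains of 4 or more peaks were set aside for their position, 40 on chromosome 5 and 79 near chromosome ends.

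Clusters were spread unevenly over the chromosomes. Chromosome 19 had 55, chromosome 9 had 53 and chromosome 1 had 46, while chromosomes 13 and 18 had 1 each. Of the lipid-overload peaks on chromosome 9, 20.7% (18.5 to 22.9) were members, and of those on chromosome 19, 16.6% (14.8 to 18.4). Nearly all clusters of chromosome 9 stood on its distal long arm. The limit was set after seeing the data, at the whole Mb below the start of the upper 90% of them (127.451 Mb). Beyond it there were 48 with 257 peaks, which is 38% (34.3 to 41.8) of the lipid-overload peaks in that stretch, against 3.63% (2.36 to 5.31) on the rest of the chromosome. In the same stretch 38.2% of 212 coding genes shared at least 1 bp with a cluster. Local background was also high there. Around lipid-overload peaks outside clusters its median was 1.76 fragments on distal chromosome 9, 1.04 on chromosome 19 and 0.660 elsewhere. Summits outside clusters had median heights of 12, 11 and 8 fragments in the same order. The part of this background in the number of clusters was not tested.

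**Figure D2:**
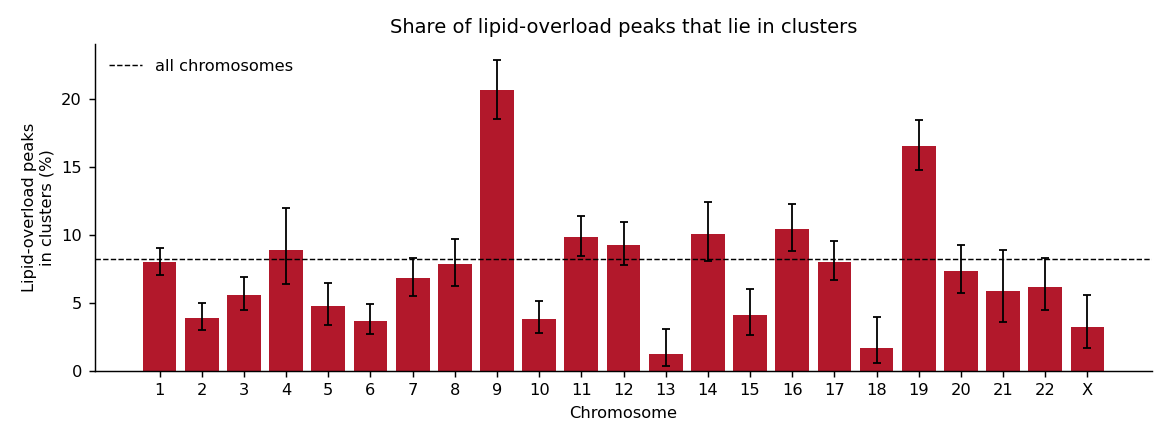
Share of the lipid-overload peaks on each chromosome that lie in clusters, in percent, with exact 95% binomial intervals as error bars. The dashed line is the share over all chromosomes, 8.25%; chromosomes 9 (20.7%) and 19 (16.6%) stand highest and chromosome 13 (1.21%) lowest.

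Most clusters touched a coding gene, as did most of the chains just outside the rule. Of the 417, 346 (83.0%, 79.0 to 86.5) shared at least 1 bp with a protein-coding gene, 178 with exactly 1 and 168 with more. Of the 707 chains of 3 peaks, 79.5% did. A whole coding gene lay inside 139 (33.3%, 28.8 to 38.1). Clusters held 50.6 coding genes per Mb, counted by the lower-numbered end of the gene, against 6.47 per Mb of the whole region. The 2 are not alike, since cluster spans begin and end on peaks. Of the lipid-overload peaks outside clusters, 33.0% lay at a coding gene end. Gene density around those peaks was not computed. In all, 637 coding genes touched a cluster. Within the region these were 636 of 18987, or 3.35% of them. Long noncoding RNA genes, transcribed without coding for protein, numbered 190 and were found in 147 clusters.

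Member peaks were mostly away from the ends of coding genes. Ends are the outermost ones, so a peak over a start within a gene, as in LMNA and CCDC187, counts as off gene ends. Peaks off gene ends, with no base within 1 kb of either end of a coding gene, made up 72.2% of the members (1467 of 2032, 70.2 to 74.1), against 67.0% (66.4 to 67.6) of the lipid-overload peaks outside clusters and 67.5% of all lipid-overload peaks in the region. At a coding gene end lay 27.8% of the members (25.9 to 29.8) and 33.0% (32.4 to 33.6) of the others. Inside coding genes lay 41% of the members (38.9 to 43.2) and 37.6% (37.0 to 38.3) of the others. In no gene at all lay 22.8% (21.0 to 24.7) and 21.0% (20.4 to 21.5). Without the 42 clusters more than 20 kb from any coding gene, the share of members off gene ends was 69.1% (66.9 to 71.2).

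Gene starts and gene tails were represented differently. Within 1 kb of an annotated start lay 22.3% of the members (20.5 to 24.2) and 28.9% (28.3 to 29.5) of the other lipid-overload peaks. Within 1 kb of a 3′ end, with no start near, lay 4.13% (3.31 to 5.09) and 1.95% (1.78 to 2.14). Strand and start were known for 15813 of 19821 coding genes. Among peaks inside 1 such gene and off its ends, the 673 members were a median of 11.6 kb from the outermost gene start, in genes with a median length of 38 kb. The 6714 peaks outside clusters were a median of 37.3 kb from it, in genes of 95.7 kb. Members stood in the upstream part of the gene, before its midpoint, in 56.9% of cases (53.1 to 60.7), and other peaks in 48.7% (47.5 to 49.9).

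By content the clusters fell into 4 kinds. Several coding genes were touched by 168 clusters, of which 121 (72.0%, 64.6 to 78.7) held a mock peak. Another 53 lay wholly inside 1 coding gene with no peak at its ends, and 32 of them (60.4%, 46.0 to 73.5) held one. The other 125 clusters with 1 coding gene held one in 64 cases (51.2%, 42.1 to 60.2). The 71 without a coding gene held one in 41 cases (57.7%, 45.4 to 69.4). The median length was 21.3 kb for clusters with several genes and between 15.6 and 17.3 kb for the other kinds.

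**Figure D3:**
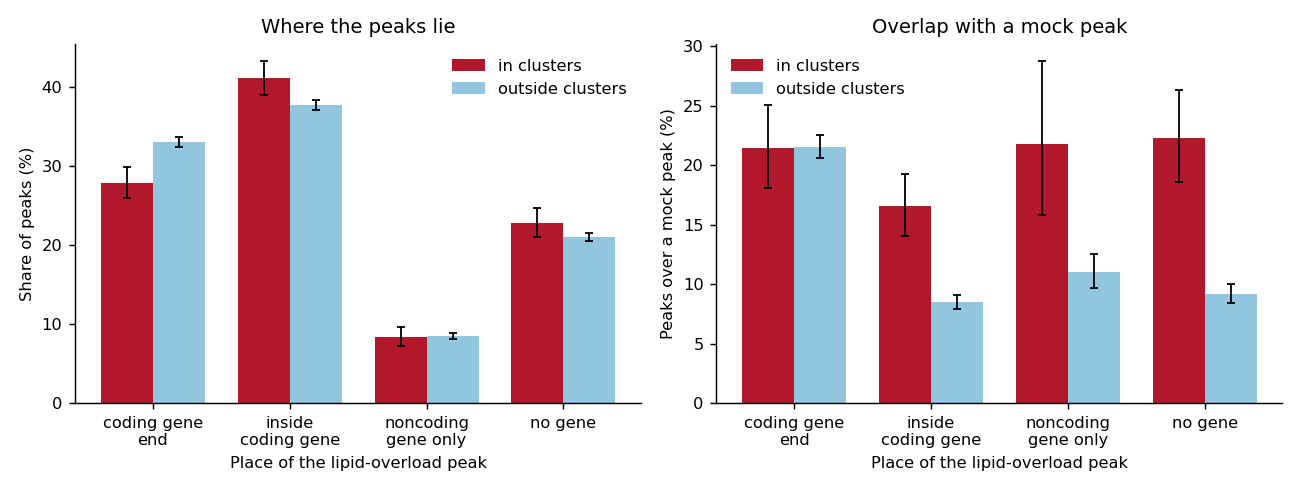
Left, share of lipid-overload peaks at a coding gene end, inside a coding gene off its ends, in a noncoding gene or pseudogene only, or in no gene, for the 2032 peaks in clusters (red) and the 22587 outside (blue). Right, share of the peaks of each kind that overlap a mock peak; error bars are exact 95% binomial intervals. Off gene ends the red bars on the right are higher than the blue ones, and at gene ends they are level (21.4% and 21.6%).

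Mock peaks, which the rule did not use, were denser in clusters than in the rest of the region. At least 1 mock peak lay in 258 clusters (61.9%, 57.0 to 66.6), and none in 159 (38.1%, 33.4 to 43.0). How far the lower depth of mock accounts for clusters without a mock peak, here and below, was not tested. A single mock peak was found in 154 clusters, 2 in 62, 3 in 25 and 4 or more in 17. The 429 mock peaks amounted to 52.6 per Mb of cluster (47.7 to 57.8), against 2.47 per Mb (2.42 to 2.53) outside. Of these 429, 396 lay on a lipid-overload peak (92.3%, 89.4 to 94.6), and 33 lay between the peaks. Outside clusters 41.3% (40.2 to 42.5) of the mock peaks lay on a lipid-overload peak, and over the region 44.2%. Clusters were chosen as stretches dense in lipid-overload peaks, so these comparisons with the rest of the region are not like for like. Spans around other lipid-overload peaks were not counted.

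Seen from the lipid-overload list, overlap with mock was more frequent in clusters when all heights were pooled, and the difference varied with height and place. A mock peak was overlapped by 19.6% of the members (399 of 2032, 17.9 to 21.4), by 13.2% (12.7 to 13.6) of the peaks outside and by 13.7% of all. Away from gene ends the shares were 19% (17 to 21.1) for members and 9.04% (8.59 to 9.51) for the others. At gene ends they were 21.4% (18.1 to 25.0) and 21.6% (20.6 to 22.5). Members were also taller, with a median of 14 fragments (quartiles 10 and 20), against 8 (quartiles 6 and 12). Among peaks of 13 to 20 fragments, 15.8% of the members (13.1 to 18.8) overlapped a mock peak and 24.1% (22.7 to 25.5) of the others. From 21 to 40 fragments the shares were 39.9% (35.0 to 45.0) and 50.9% (48.4 to 53.4). These bins pool all places. Off gene ends the intervals overlapped, with 15.96% (12.7 to 19.7) of the members and 20.4% (18.5 to 22.4) of the others at 13 to 20 fragments, and 41.7% (35.4 to 48.2) and 50.7% (46.6 to 54.7) at 21 to 40. At 4 to 5 fragments the shares over all places were 6.90% (1.91 to 16.7) for members and 2.57% (2.13 to 3.06) for the others, and at 6 to 8 they were 5.86% (3.45 to 9.22) and 4.90% (4.42 to 5.43). In the 3 bins of 12 fragments or fewer, and at 41 or more (81.3%, 70.7 to 89.4, against 85.6 to 93.3 outside), the intervals of both kinds overlapped.

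**Figure D4:**
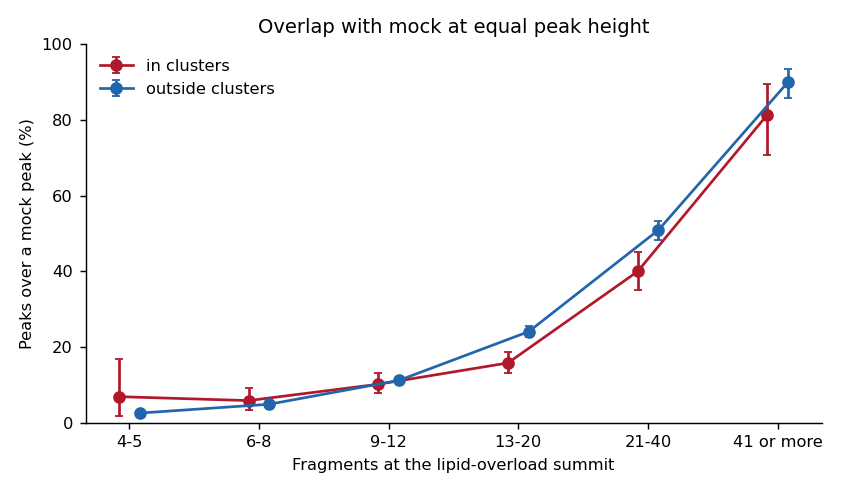
Share of lipid-overload peaks that overlap a mock peak, in percent, by the number of fragments at the lipid-overload summit, for peaks in clusters (red) and outside (blue) in all places, with exact 95% binomial intervals. From 13 to 40 fragments the red points (15.8% and 39.9%) lie below the blue ones (24.1% and 50.9%).

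Both height and local background were higher in clusters, which the rule itself may favour. It picks peaks with near neighbours, whose fragments may count in the local background, and a higher background asks for taller summits. How far the rule sets these values was not tested. The local background of a member peak had a median of 1.79 fragments, against 0.685 for peaks outside clusters, and the median fold given by the authors was 5.01 for members and 5.17 for the others. Peaks of 500 bp or more made up 6% of the members (5.01 to 7.13) and 5.43% (5.14 to 5.74) of the others. Where a member overlapped a mock peak, its lipid-overload summit had a median of 22 fragments and the mock summit 10. The ratio had a median of 2.14 (quartiles 1.69 and 2.80) over these 399 members and 2.29 (quartiles 1.67 and 3.09) over the 2974 other overlapping peaks. These ratios cover only peaks called in both libraries, which favours tall mock peaks, so they are not a measure of the change between conditions. They are not scaled for depth either, and the ratio of the lowest local backgrounds was 2.39.

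Single genes accounted for some of the most crowded clusters. LMNA encodes lamins A and C, which line the inner nuclear membrane. It held 9 lipid-overload peaks over 47.1 kb (chromosome 1, 156090617 to 156137682, hg38), none at an end of the gene. Their summits had 11, 14, 22, 27, 48, 22, 37, 24 and 18 fragments along the chromosome. Mock had 3 peaks there, with 23, 12 and 11 fragments. The tallest in both libraries overlapped, and the mock peak of 11 lay on no lipid-overload peak. NIBAN2, on the distal long arm of chromosome 9, held 10 peaks over 38.4 kb, of 9 to 47 fragments, and 3 mock peaks of 11, 9 and 16. The mock peaks lay on the lipid-overload peaks of 47, 27 and 34 fragments, which were the tallest of the cluster. PIEZO1 encodes an ion channel opened by stretch of the membrane. Its cluster ran from within the gene to beyond its start, with 6 peaks inside, 1 at the start and 3 upstream. The 10 peaks had 7 to 38 fragments over 34.9 kb, and 3 mock peaks of 20, 8 and 6 fragments lay on lipid-overload peaks of 27, 28 and 11. The tallest lipid-overload peak of PIEZO1 had no mock counterpart.

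Further clusters touched 1 coding gene each. PLEC, the gene of plectin, which ties intermediate filaments to membrane junctions, had 7 lipid-overload peaks of 17 to 54 fragments over 18.9 kb, and 1 mock peak of 18 on the tallest. Periplakin, a relative of plectin, is encoded by PPL, whose cluster held 5 lipid-overload peaks of 15, 24, 17, 37 and 42 fragments. The first 3 lay inside PPL and the last 2 beyond it. All 5 lay on mock peaks, of 4, 8, 7, 17 and 19 fragments, so that the order of heights was the same in both libraries. TTC34 had 8 lipid-overload peaks of 5 to 20 fragments in 1 cluster, and its 1 mock peak of 6 fragments lay on the lowest of them. GSE1 had 6 of 15 to 18 fragments and a mock peak of 8. An uncharacterised gene of chromosome 2, LOC107985915, had 7 peaks within 5.39 kb, of 16 to 27 fragments, and 3 mock peaks of 15, 14 and 13. This cluster did not remain when peaks within 1 kb were merged.

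The cluster with the most peaks, on the distal long arm of chromosome 9, ran over CCDC187, GPSM1 and the noncoding sequence between them. GPSM1 is a modulator of G protein signalling. The cluster held 16 lipid-overload peaks over 68.2 kb (chromosome 9, 136267292 to 136335499), of 10 to 37 fragments, all off gene ends. Its 2 mock peaks, of 10 and 9 fragments, lay between lipid-overload peaks and overlapped none. At NOTCH1, the receptor gene of the Notch pathway on the same arm, 8 lipid-overload peaks of 12 to 27 fragments ran over 36.6 kb. Mock had no peak there. Only 1 of the 8 was at an end of NOTCH1, and 6 lay beyond it. Without a mock peak were also the 8 peaks at TMEM208 and FHOD1, a formin that shapes actin, of 7 to 24 fragments.

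Compact groups of genes gave clusters with a peak at nearly every gene. The cluster from TPRN to TUBB4B, a beta-tubulin gene, touched 9 coding genes in 40.6 kb. Its 8 lipid-overload peaks had 52, 14, 19, 18, 29, 36, 24 and 57 fragments, 6 of them at gene ends, against 1 mock peak of 10 fragments. A cluster on chromosome 16 touched 7 genes, among them CLDN6 and CLDN9 of tight junctions and TNFRSF12A, the receptor of the cytokine TWEAK. Its 7 lipid-overload peaks had 11 to 38 fragments, and the tallest, at TNFRSF12A, lay on the single mock peak, of 17. Of the 8 peaks from PROCA1 to TRAF4, an adaptor of cytokine receptor signalling, 6 were at gene ends, with 38 fragments at TRAF4 and NEK8. The 2 mock peaks of that cluster had 7 and 6 fragments. Around HSF4, a heat shock factor, and E2F4, a cell cycle repressor, 6 lipid-overload peaks had 12 to 38 fragments, against mock peaks of 9 and 15. Between IGFLR1 and PROSER3 4 lipid-overload peaks had 18 to 39 fragments, with 29 and 25 beside PSENEN, a subunit of gamma-secretase, and the mock peak had 6. From CKS1B, a cofactor of cyclin-dependent kinases, to ZBTB7B, a zinc finger repressor, 6 lipid-overload peaks had 9 to 57 fragments and 5 mock peaks 6 to 19. That was the largest number of mock peaks in a cluster with several coding genes.

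Other crowded clusters mixed gene ends and gene bodies. CRIP2 and CRIP1, which encode LIM domain proteins, and TEDC1 shared 9 lipid-overload peaks of 12 to 44 fragments over 48.6 kb, 5 of them at gene ends, and 3 mock peaks of 15, 10 and 10. Around CACTIN, PIP5K1C and the thromboxane receptor gene TBXA2R lay 8 lipid-overload peaks of 9 to 27 fragments, and the tallest, at CACTIN, lay on the only mock peak, of 8. On the X chromosome, 8 lipid-overload peaks of 9 to 22 fragments ran from MAGIX to SYP, the synaptophysin gene, with 3 mock peaks of 8, 5 and 8.

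**Figure D5:**
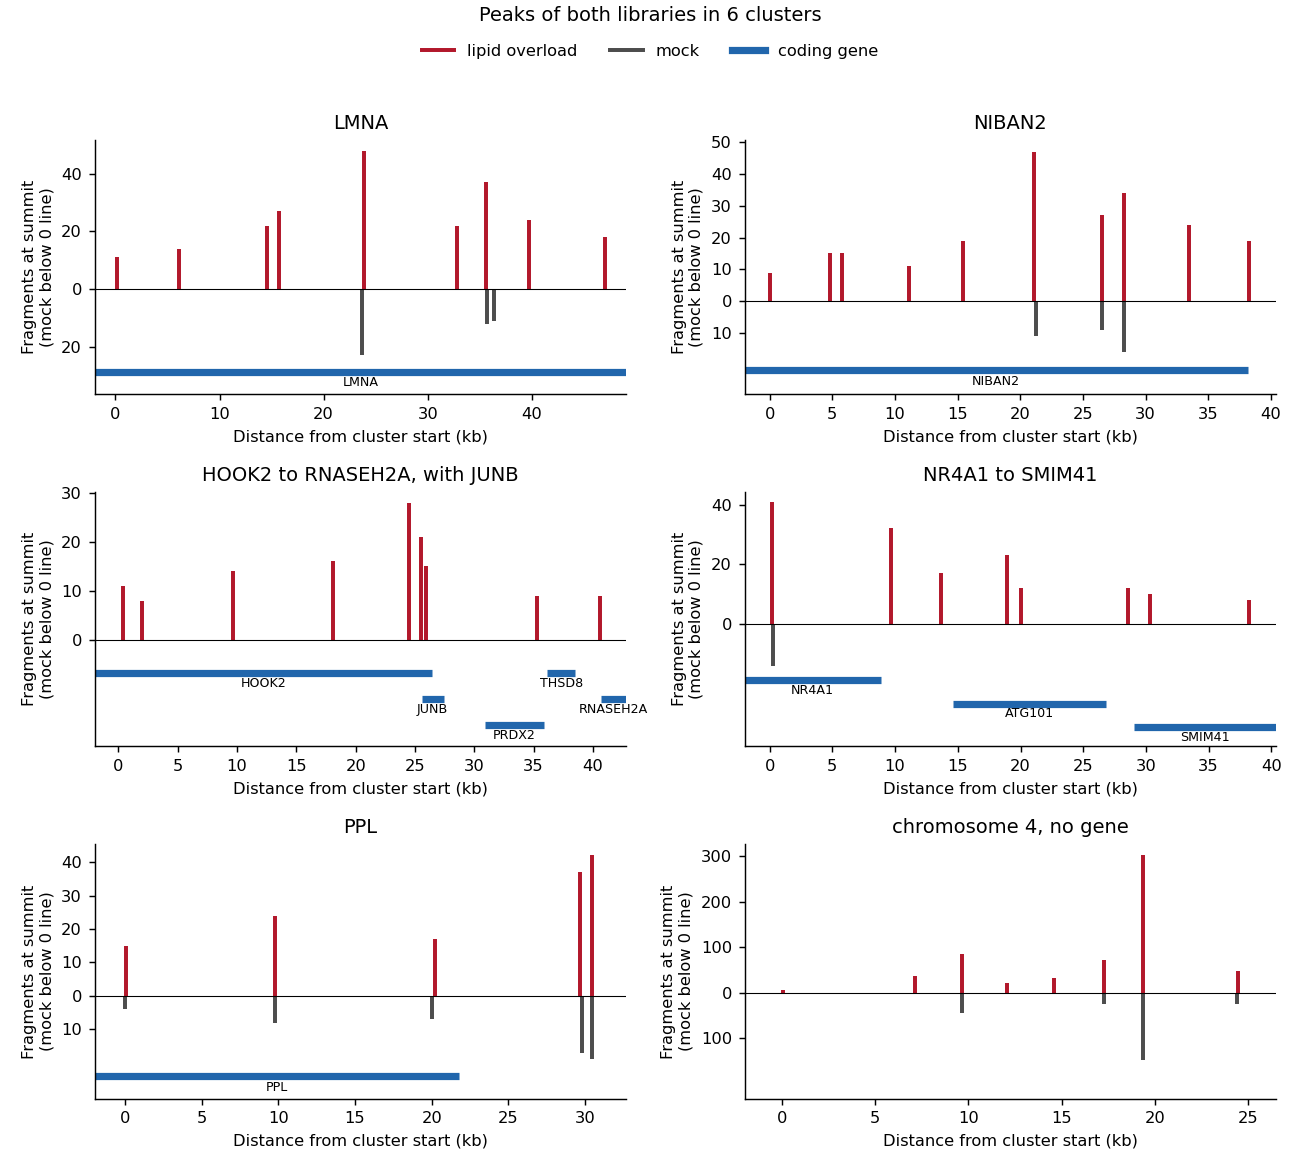
Fragments at the summit of each peak against its distance from the cluster start in kb, for 6 clusters, with lipid-overload peaks drawn upwards (red), mock peaks downwards (grey) and coding genes as blue bars cut at the panel edges. LMNA, NIBAN2 and PPL have mock peaks under their tallest lipid-overload peaks, the cluster with JUNB has none, and the chromosome 4 cluster reaches 302 fragments with 149 in mock.

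The tallest summits stood in clusters without genes near centromeres. A cluster on chromosome 4 (49130073 to 49154570), 68.0 kb from its nearest coding gene CWH43, held 8 lipid-overload peaks of 6 to 302 fragments. Mock had 4 peaks there, of 45, 25, 149 and 25 fragments, and the summits of 302 and 149 overlapped. Further clusters of the same stretch, beginning at 49092746 and 49306265, had 7 peaks each, up to 87 and 44 fragments, with 3 and 6 mock peaks. On chromosome 5 the clusters beginning at 49599490 and 49658626 reached 119 and 143 fragments, against 80 and 89 in mock. Sequence near centromeres is known to be rich in repeats, where reads may not be placed at 1 position. Repeat content was not examined here, for these or any other clusters. Peaks at genes reached lower, with 113 fragments in lipid overload and 39 in mock at the end of the sugar transporter gene SLC2A8, and 97 and 21 at that of TMEM141.

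Of the 42 clusters more than 20 kb from any coding gene, 27 (64.3%, 48.0 to 78.4) held a mock peak. Their peaks lay on a mock peak in 34.8% of cases (28.3 to 41.8), against 17.9% (16.2 to 19.8) in the remaining 375 clusters. The cluster of chromosome 22 near its centromere (11814322 to 11829618) had 6 lipid-overload peaks of 6 to 45 fragments and 5 mock peaks of 8 to 26. A cluster of chromosome 1 beginning at 143231381 had 7, of 6 to 24 fragments, and 5 mock peaks of 6 to 13. The smallest spacing was found at TANGO2 on chromosome 22, with 4 peaks of 21, 12, 14 and 13 fragments within 1.55 kb and no mock peak, then in the chromosome 5 cluster within 2.68 kb and near ANKRD62 on chromosome 18, with 5 peaks within 2.78 kb. In the last, 12 to 15 fragments in lipid overload stood against 10 and 13 in mock. On chromosome 21, 4 peaks of 20 to 24 fragments lay within 3.23 kb, with a mock peak of 10. None of these closely spaced clusters remained when peaks within 1 kb were merged.

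Some gene-free clusters lay beside noncoding RNA genes. On chromosome 7, 9 lipid-overload peaks of 6 to 35 fragments covered 58.7 kb with 7 noncoding genes, 33.8 kb from INSIG1, which holds back cholesterol synthesis. Mock had 3 peaks, of 9, 10 and 5 fragments, on the lipid-overload peaks of 35, 21 and 10. The noncoding gene CYKILR on chromosome 19 had 8 lipid-overload peaks of 5 to 31 fragments and 6 mock peaks of 4 to 22, and the tallest of both overlapped. MALAT1, an abundant nuclear RNA, began at the end of a cluster of 5 peaks of 13 to 31 fragments, with 3 mock peaks of 8, 10 and 12.

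Immediate early genes answer a stimulus without new protein synthesis, and several were found in clusters. Of 22 such genes 7 lay in one (31.8%, 13.9 to 54.9), against 3.35% of all coding genes. A member peak stood at an end of 6 of the 22, against 2.70% of coding genes. Lipid-overload peaks of any kind, in clusters or not, stood at an end of 18 of the 22, against 43.0% of coding genes. Of the 7, 4 are on chromosome 19, where 9.21% (7.72 to 10.9) of coding genes touched a cluster. Subunits of the transcription factor AP-1 made up several of them. JUNB stood in a cluster of 9 peaks with HOOK2, PRDX2, THSD8 and RNASEH2A (chromosome 19, 12765909 to 12806710). Along the chromosome these had 11, 8, 14, 16, 28, 21, 15, 9 and 9 fragments in lipid overload, and mock had no peak over the 40.8 kb. The peaks of 21 and 15 were at the start of JUNB, within 1 kb of an end of HOOK2 too, and that of 28 was the next one upstream of JUNB. RNASEH2A, the catalytic subunit of an enzyme that removes RNA from DNA, had 9 fragments at its start. JUND stood in a cluster of 8 peaks, of 12 to 32 fragments, and 4 mock peaks of 15, 24, 15 and 8. At the end of JUND itself there were 31 fragments in lipid overload and 24 in mock. FOSL1 had 31 in lipid overload and 14 in mock at its end, in a cluster of 5 peaks and 3 mock peaks.

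NR4A1, an orphan nuclear receptor induced by many stimuli, carried 2 clusters. The first, around its upstream part, had lipid-overload peaks of 18, 30, 13, 28 and 46 fragments, with a mock peak of 14 on the last. The second began within NR4A1 and ran over ATG101, an autophagy gene, to SMIM41, with peaks of 41, 32, 17, 23, 12, 12, 10 and 8 fragments. Its mock peak, of 14, lay on the first of these. EGR1, a zinc finger transcription factor, stood in a cluster of 5 peaks of 11, 23, 39, 21 and 12 fragments, with a mock peak of 11 on the peak of 39 at an end of EGR1. ZFP36, which speeds the decay of messenger RNAs, had 23 fragments at its end in a cluster of 6 peaks of 8 to 31. IER2 stood in a cluster of 4 peaks of 13 to 28 that ran beyond the gene, with none at an end of IER2. Neither of the last clusters held a mock peak.

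Other lists were set against the same 3.35%, and their counts include up to 3 genes per list outside the stretches allowed for clusters. Ribosomal protein genes numbered 5 of 22 (22.7%, 7.82 to 45.4), and 16 of the 22 had a lipid-overload peak of any kind at an end. RPL35 and RPL36 had 24 fragments each at an end, against mock peaks of 12 and 7 there, while RPS2 had 13 and RPS15 11 without a mock peak at that place. Of the p53 target genes, 4 of 20 lay in clusters (20%, 5.73 to 43.7), and 15 of the 20 had an end peak of any kind. PLK3, a stress kinase, had 34 fragments at its end, with 14 in mock. PHLDA3, an inhibitor of AKT, had 23, with 12 in mock. BAX and BBC3 promote cell death at mitochondria. BAX had 8 fragments at its end, in a cluster that reached on to FTL, the ferritin light chain with 12. The cluster at BBC3 held 4 peaks of 12 to 17, none at an end of BBC3, and ran on beyond the gene. Neither the BAX nor the BBC3 cluster held a mock peak.

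Few genes of lipid metabolism lay in clusters, with wide intervals that take in the share of coding genes at large. PNPLA3, a lipase of lipid droplets, was the only one in a cluster among 26 genes of lipid droplets and fatty acid synthesis (3.85%, 0.0973 to 19.6). Its cluster, shared with SAMM50, was low, with peaks of 7, 7, 6 and 4 fragments and none in mock. ECI1, an isomerase of fatty acid oxidation, was 1 of 20 (5%, 0.127 to 24.9), with 15, 10, 8 and 11 fragments and no mock peak. None of the 20 genes of sterol synthesis and uptake lay in a cluster (0 to 16.8), although 15 of the 20 had a lipid-overload peak at an end, against 43.0% of all coding genes. The interval takes in the 3.35% of all genes.

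Several families that stand side by side in the genome were absent. Neither the 32 replication-dependent histone genes (0 to 10.9), the 27 HOX genes (0 to 12.8) nor the 11 metallothionein genes (0 to 28.5) had a member in a cluster. At gene ends, 17 of the histone genes had a lipid-overload peak, as did 2 HOX and 4 metallothionein genes, against 43.0% of all coding genes. None of 20 genes of endoplasmic reticulum stress (0 to 16.8) and 22 of double-strand break repair (0 to 15.4) lay in a cluster, while 14 and 16 of them had an end peak. Of 24 hepatocyte genes none lay in a cluster (0 to 14.2), and 2 had an end peak. A cluster of 5 peaks reached to within 0.452 kb of CEBPB, whose end had 12 fragments. FTL was 1 of 20 oxidative stress genes (5%, 0.127 to 24.9), and MALAT1 1 of 19 noncoding RNAs (5.26%, 0.133 to 26.0). MYC was 1 of 19 liver cancer drivers (5.26%, 0.133 to 26.0), with peaks of 16, 27, 24 and 26 fragments over 9.19 kb and a mock peak of 14 on the third. With lists of this size, intervals that begin at 0 or near it take in the share of all genes.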

How the data were processed

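γH2AX was mapped by CUT&Tag in 4 samples, and the deposited peak lists of 2 libraries were used. Per the submitters' processing notes, the tools included BWA, FastQC, deepTools and MACS2 2.1.2, with hg38. Their settings and any control library are not given in the sources read here. Each deposited list gives, per peak and library, a score, a fold enrichment (a ratio), −log10 p, −log10 q and the summit. These values are the authors' own, with a lowest −log10 q of 1.30 in both. Read totals per sample were not used here, so depth is given only through the lowest local background. Fragments at a summit were solved from fold and p under the MACS2 formulas (fold as fragments plus 1 over background plus 1). A whole number came out for 100% of peaks, within 0.0001 in log10 p. Chaining and solving were tested on simulated data.

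Genes came from RefSeq (GRCh38.p14). Genes listed over 1 Mb out of order along a chromosome (679, of which 153 protein-coding) were set aside. Strand and start came from a promoter table and chromosome lengths were those of hg38. Overlap means 1 bp or more. Gene ends are 1 kb either side of both ends. Clusters were named by fixed ranks: most peaks (10), highest summit, shortest mean gap, no mock peak and highest summed fragments, most mock peaks, most peaks without a coding gene, most peaks within 1 coding gene, and most coding genes (5 each), and up to 4 members of each of 15 gene lists. Further list members, CEBPB, and genes with several clusters were named after their values were seen. Some clusters and genes that these ranks name are not reported here. The clusters and lists were chosen with earlier results of these data known. No test was run, with 1 sample per group. Alternatives were the gap, the number of peaks, the q threshold, the list length, merging, the exclusions, the gene-end width, gene content and mock overlap. The scripts used Python 3.11.15, numpy 2.4.6, pandas 2.3.3, scipy 1.17.1 and matplotlib 3.10.9.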

Additional observations from a re-analysis of the deposited data

How the results depend on the processing

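Cluster numbers follow the rule and the list. A gap of 5 kb gave 61 clusters, 20 kb 1061, 3 or more peaks 1124, 5 or more 185, a −log10 q of at least 5 gave 63 and the list cut to the mock length 44. Merging peaks within 1 kb (288), lifting the exclusions (536), and, chosen after seeing the data, leaving out clusters over 20 kb from a coding gene (375) or distal chromosome 9 (369) kept the number within 1.5 times of 417. The median length was 7.93 kb with a 5 kb gap, 37.7 kb with 20 kb, 12.1 kb with 3 or more peaks, 24.1 kb with 5 or more, 19.2 kb at −log10 q of at least 5 and 21.1 kb after merging. The share of clusters with a coding gene was 68.9%, 90.1%, 74.6% and 75% with the 5 kb gap, the 20 kb gap, the q threshold and the mock list length, 92.3% without clusters over 20 kb from a coding gene, and 33.3% when a whole gene had to lie inside. The share of members off gene ends was 75%, 69.5% and 68.0% with the 5 kb gap, the 20 kb gap and the q threshold, 75.2% with the exclusions lifted, 69.1% without clusters over 20 kb from a coding gene, and 58.3% with gene ends of 3 kb. The share of clusters with a mock peak was 49.0% with 3 or more peaks, 73.0% with 5 or more and 90.9% at the mock list length. Leaving out distal chromosome 9 kept the median length and these 3 shares inside their intervals. Of the 37 clusters named by rank, 14 remained part of a cluster with a 5 kb gap, 20 at −log10 q of at least 5 and 14 at the mock list length. Most of the 10 clusters with most peaks remained in none of these settings. These were the clusters of CCDC187 with GPSM1, PIEZO1, TBXA2R with CACTIN, PROCA1 with RAB34, MAGIX with PLP2, and that near INSIG1. The clusters of CRIP2 with CRIP1, of LMNA and of HOOK2 with JUNB remained in some of them. Only that of NIBAN2 remained in all of them. With peaks within 1 kb merged, 31 of the 37 remained. Those lost were the 5 with the shortest mean gap and the cluster of SLC2A8. The causes of these shifts were not tested beyond the construction of each setting. No paired analysis was possible because each group has 1 sample. Clusters rest on single libraries, and most peaks on fewer than 20 fragments.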

Other observations

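Some genes were touched by more than 1 cluster. There were 15 such coding genes, picked out after their values had been seen. TTC34 and ZC3H3 were touched by 3 clusters each, with 17 and 13 lipid-overload peaks, and 7 and 3 mock peaks. RXRA, the partner of many nuclear receptors that sense lipids, was touched by 2 clusters with 9 lipid-overload and 3 mock peaks, up to 25 and 23 fragments in lipid overload and 17 and 12 in mock. ARHGEF2, an activator of RhoA, had 12 lipid-overload and 3 mock peaks over 2 clusters, and RABL6 12 and 5. LAMC3, a laminin chain, and JPH3, a junctophilin, had 8 lipid-overload peaks each over 2 clusters and no mock peak in them.

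The immunoglobulin heavy chain locus on chromosome 14, which B cells rearrange, held 3 clusters with 4, 5 and 6 lipid-overload peaks and 2, 2 and 1 mock peaks. The third, at 105857283 to 105868221, covers the J segments. Of the 15 mock clusters, 12 overlapped a lipid-overload cluster. The other 3 lay at DOCK5, at NPW and NHERF2, and on chromosome 22 in no coding gene, and held 4, 3 and 3 lipid-overload peaks in their spans. Of the 15, 9 held no coding gene.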
